A study of Homo sapiens with 18 samples.

Results

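The human diffuse large B cell lymphoma lines SUDHL4 and Farage were compared in how their transcripts changed after 12 h with the BCL6 inhibitor 79-6.1085 at 10 µM. The measure is the response difference: the log2 change from DMSO, the vehicle, to inhibitor in SUDHL4 minus the same change in Farage. A positive difference means that the gene went further up, or less far down, in SUDHL4. It is given for the shared genes, those with a mean of at least 5 CPM (counts per 10 to the power 6 reads) in the DMSO libraries of both lines, which were 8659 of the 23250 gene symbols listed. Another 1503 genes reached that level in 1 of the lines and are not described. The design had 4 groups of 3 RNA-seq libraries each, SUDHL4 with DMSO, SUDHL4 with inhibitor, Farage with DMSO and Farage with inhibitor. The labels name no genetic change in any of these groups and no separate cultures for the replicates, so the p-values cover the variation among these libraries alone, which may be technical. Each line is a single established line, so a difference between them belongs to these lines and not to a class of lymphoma. In bulk RNA, fewer cells of a kind and less RNA per cell cannot be told apart.

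BCL6 is a zinc finger repressor that keeps B cells in the germinal centre state. It recruits corepressor complexes built around BCOR and NCOR proteins and holds down genes of cell cycle arrest, NF-kB signalling, antigen presentation and plasma cell differentiation. Germinal centre B cells divide fast and tolerate DNA breaks, and diffuse large B cell lymphomas often keep that state. The series links BCL6 with the Polycomb enzyme EZH2 and with CBX8, a Polycomb subunit that binds methylated histone H3. The comparison here asks which genes did not answer BCL6 inhibition in the same way in both lines.

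Each of the 12 libraries had between 16.87 and 25.49 M reads on listed genes (M, reads in units of 10 to the power 6). In the shallowest of the 12 libraries 3 reads correspond to 0.139 CPM, far below the members' levels. All 7 B lineage markers and all 6 germinal centre markers were above 1 CPM in every group. Markers of T and NK, myeloid, epithelial and erythroid cells summed to at most 3.258 CPM in any library, and those of stromal and endothelial cells to at most 7.305 CPM, nearly all COL1A1 in Farage DMSO. No pair of replicates was a duplicate. Replicate 3 of SUDHL4 DMSO stood apart. It was left out to find the 547 genes with a 4-fold or larger change in SUDHL4. Over these it lay a median of 11.18% of the way to the treated libraries. For the other 11 libraries the same measure, towards the other treatment of the same line, was -6.27 to 4.13%. Each had its own set of 299 to 476 genes. The lowest values, of SUDHL4 DMSO replicates 1 and 2, had replicate 3 in their reference. Differences without replicate 3 of SUDHL4 DMSO are given beside some of the genes and lists that it moved, and not beside all of them.

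Inhibition moved most shared genes in both lines, and more of them down than up. In SUDHL4, 2542 shared genes were called higher and 4946 lower, where 28.5% and 52% of all 12357 genes tested were, 80.5% in all. In Farage 2578 were called higher and 4828 lower, where 29.4% and 52.7% of all genes tested were, 82.1% in all. A call is an adjusted p under 0.05 by limma with Benjamini-Hochberg adjustment over all genes tested. The median change of all genes tested was -0.231 in SUDHL4 and -0.241 in Farage at the deposited scale. Rescaling by the median of ratios moved these medians to -0.005 and -0.035, and split the shared genes into 3606 higher and 3940 lower in SUDHL4 and 3507 and 3861 in Farage. The median difference over the shared genes was -0.022 at the deposited scale and 0.024 after rescaling.

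The response difference was called for 57.3% of the shared genes, against 58.2% of all genes tested. The difference was called higher for 2315 shared genes and lower for 2643, where 28.1% and 30.1% of all genes tested were called. The shares, 26.7% and 30.5% of the members, lie near that background. Which direction held more calls depended on the setting: after rescaling by the median of ratios 2669 were higher and 2459 lower, edgeR gave 2868 and 2231, and DESeq2 2673 and 2405. The 9 treated-minus-DMSO pairs of SUDHL4 did not overlap those of Farage for 4279 shared genes, 49.4% of them, against 50.5% of all genes tested. Differences of at least 2-fold were called higher for 264 and lower for 395 shared genes (3.05% and 4.56% of them), where 5.42% and 6.33% of all genes tested were. Differences of at least 4-fold were called higher for 9 and lower for 36 shared genes (0.104% and 0.416%), where 0.558% and 0.834% of all genes tested were. With all 18 libraries of the series in the fit, so that the SUDHL6 groups entered the estimate of spread, 1385 were called higher and 1686 lower. Without replicate 3 of SUDHL4 DMSO 2395 were called higher and 2781 lower. The fit of all 18 libraries leaves each difference as it was and alters its estimated error. Replicate 3 of SUDHL6 was shallower than the 12 libraries, at 7.36 M reads with DMSO and 6.29 M with inhibitor. The SUDHL6 replicates also spread widely for some genes. TNF was at 29.26 ± 28.8 CPM with DMSO and PCNA at 97.35 ± 51.2 with inhibitor (mean ± SD, n = 3). Other genes spread little, such as GSR at 47.91 ± 0.792 CPM with DMSO. What lowered the number of calls was not tested.

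Most of these calls were differences of degree. Of the 2643 genes with a lower difference, 1293 fell in both lines, further in SUDHL4, and 389 rose in both, further in Farage. Another 421 fell in SUDHL4 with no call in Farage. Of the 2315 with a higher difference, 942 fell in both lines, further in Farage, and 521 rose in both, further in SUDHL4. Another 335 fell in Farage with no call in SUDHL4. Genes that went opposite ways were fewer: 233 rose in SUDHL4 and fell in Farage, and 279 fell in SUDHL4 and rose in Farage. Among all 12357 genes tested 358 and 399 had these opposite patterns, 2.9% and 3.23%. The other patterns were not counted over all genes tested, so their counts describe the shared genes without a background. Among the 3701 shared genes whose difference was not called, 1919 fell in both lines and 1045 rose in both.

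**Figure D1:**
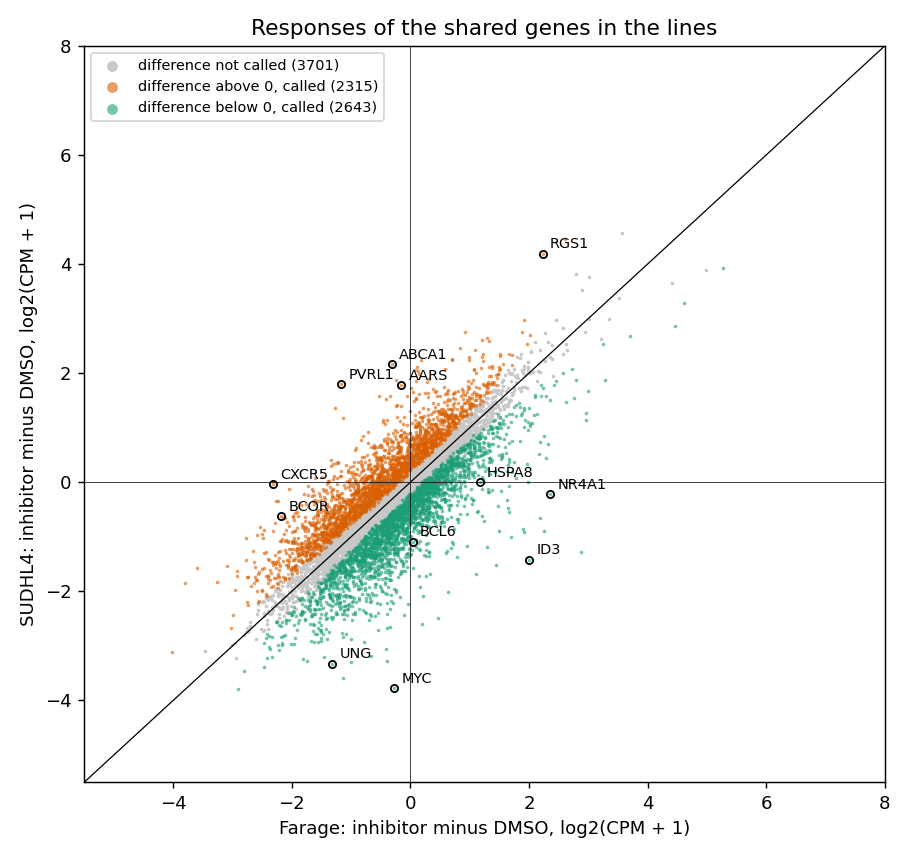
Change from DMSO to inhibitor in Farage (x axis) and SUDHL4 (y axis), both on the log2(CPM + 1) scale, 1 point per shared gene (n = 8659). Points on the diagonal changed equally. The 2315 orange genes have a called difference above 0, the 2643 green genes one below 0, and the 3701 grey genes none. MYC lies far below the diagonal at -3.78 in SUDHL4 and -0.27 in Farage, and PVRL1 far above it.

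The target of the inhibitor was itself among the genes that differed. BCL6 was at 503.9, 526.3 and 461.4 CPM in SUDHL4 DMSO and at 233.9, 227.1 and 238.1 CPM with inhibitor. In Farage it was at 206.8, 204.7 and 203.1 CPM with DMSO and 204.6, 205.0 and 223.7 with inhibitor. The SUDHL4 groups did not overlap, and the treated SUDHL4 libraries came down to near the level that Farage held in both groups. The response difference was -1.13 (SE 0.0813, adjusted p = 8.6e-09).

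BCOR, the corepressor that binds the BCL6 BTB domain, differed the other way. It was at 54.1, 63 and 52.4 CPM in SUDHL4 DMSO and 34.3, 31.5 and 44.4 with inhibitor, and at 74.4, 71.1 and 72.1 CPM in Farage DMSO and 14.8, 13.1 and 18.1 with inhibitor. Treated libraries lay below DMSO libraries in both lines, and the fall was larger in Farage (difference 1.56, SE 0.165, adjusted p = 6.13e-07). A list of BCL6 corepressors and the acetyltransferases that oppose them, which does not hold BCOR, had smaller differences, from -0.44 to 0.93. Of its 20 shared genes 8 had a called higher difference and 4 a lower one. The median was 0.01 against -0.01 for all genes tested. The counts of this and every later list are to be read beside 28.1% higher and 30.1% lower among all genes tested. Counts of members that rose or fell in SUDHL4 stand beside 28.5% higher and 52% lower among all genes tested. For Farage these shares were 29.4% and 52.7%. TBL1XR1, a subunit of the NCOR complexes, rose in SUDHL4 and fell in Farage (difference 0.93). HDAC2 fell more in SUDHL4 (-0.38). KAT2A, an acetyltransferase, fell by 1.21 and 1.20 on the log2 scale, a difference of -0.01 (SE 0.0988).

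EZH2 had no called difference: it was at 105.8 ± 2.31 and 128 ± 6.65 CPM in SUDHL4 and at 59.88 ± 0.756 and 65.29 ± 1.1 in Farage (mean ± SD, n = 3, DMSO then inhibitor; difference 0.15, SE 0.0753, adjusted p = 0.1). EZH2 was called by edgeR (adjusted p = 0.0312) and by DESeq2 (adjusted p = 0.0421), after rescaling by the median of ratios (0.20, adjusted p = 0.0387) and without treated SUDHL4 replicate 3 (adjusted p = 0.0409). CBX8 was at 3.748 ± 0.411 CPM in Farage DMSO and is therefore not a shared gene. It was at 0.9516 ± 0.28 CPM in treated Farage, and at 13.96 ± 1.35 and 5.874 ± 0.415 in SUDHL4 (0.17, SE 0.156, adjusted p = 0.365), and edgeR (0.79, adjusted p = 0.00599), DESeq2 (0.77, adjusted p = 0.0045) and a pseudocount of 0.25 (0.54, adjusted p = 0.0404) called it. Of 12 genes of Polycomb repressive complex 2 (PRC2), 2 had a higher and 2 a lower difference (median 0.08). EZH1, the paralog of EZH2, rose in SUDHL4 and fell in Farage (1.17, SE 0.132), as against C17orf96, a PRC2 accessory subunit, which fell in SUDHL4 and rose in Farage (-1.61, SE 0.136). Among 22 members of PRC1 and of the complex around BCOR, 6 were higher and 5 lower (median 0.08), with AUTS2 at 1.0 and BCORL1 at -0.70. In the fit of all 18 libraries 3 and 1 of these 22 were called.

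MYC showed the largest negative difference but for C13orf15 (-4.15), named here after its value was seen. The gene codes for the transcription factor that drives ribosome production, nucleotide synthesis and entry into S phase. It was at 404.2, 409.0 and 325.0 CPM in SUDHL4 DMSO and at 25.8, 27.2 and 26.8 CPM with inhibitor. Farage libraries were at 174.9, 189.2 and 169.2 CPM with DMSO and 141.4, 133.9 and 167.5 with inhibitor. All 3 treated SUDHL4 libraries lay far below the other 9, while the Farage libraries stayed between 133.9 and 189.2 CPM and their groups did not overlap. The response difference was -3.50 (SE 0.126, adjusted p = 6.08e-12), made of a change of -3.78 in SUDHL4 and -0.27 in Farage.

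Genes of the MYC network and of ribosome biogenesis lay mostly on the same side. Of 33 shared members, 20 had a called lower difference and 3 a higher one, with a median of -0.37. By call 28 members fell in SUDHL4 and 26 in Farage, where 52% and 52.7% of all genes tested did. POLR1B, a core subunit of RNA polymerase I, which makes the precursor of ribosomal RNA, was at 88.4, 96.9 and 80.9 CPM in SUDHL4 DMSO and 12, 13.4 and 14.1 with inhibitor. The Farage values were 87.3, 88.8 and 85.4 CPM with DMSO and 63.4, 67.9 and 74.6 with inhibitor. The lines started level and treated SUDHL4 ended well under treated Farage (-2.32, SE 0.111, adjusted p = 9.1e-11). NOP16 (-2.02) and NOLC1 (-1.77), both nucleolar, had the same pattern. Nucleolin (NCL), an abundant nucleolar protein, went from 1326 ± 102 to 388.8 ± 65.1 CPM in SUDHL4 and from 1300 ± 20.5 to 890.4 ± 40.3 in Farage (-1.23, SE 0.128). Not all members differed: BOP1, which acts in maturation of the large ribosomal subunit, fell by 1.75 and 1.61 on the log2 scale (difference -0.14, SE 0.173).

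The E-box CACGTG, the site that MYC and MAX bind as a pair, was looked for in the promoters of this list, from 250 bases before to 50 after the start site. The promoters are RefSeq's (build GRCh38.p14), where 7217 of the 8659 shared genes were matched, and both strands were searched. The motif was in 8 of 27 matched promoters of the list (29.6%), in 11.1% of shared genes and in 7.43% of all 27305 promoters. The 8 genes with it had a median difference of -0.22 and the 19 without it one of -0.61. The reads were aligned to hg19, and these letters are only a description of the promoters.

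Genes that make nucleotides and copy DNA fell in both lines and fell further in SUDHL4. Of 27 genes of nucleotide synthesis, 18 had a lower difference and 4 a higher one (median -0.61). CTPS, which makes CTP, was at 78.6, 85.1 and 72.8 CPM in SUDHL4 DMSO and 20.6, 21.9 and 20.3 with inhibitor, against 93.2, 99.4 and 97.9 and then 71.9, 69.1 and 74.3 in Farage. Treated libraries were lower in both lines without overlap, and lowest in SUDHL4 (-1.44, SE 0.0909, adjusted p = 2.06e-09). The ribonucleotide reductase subunit RRM1 (-1.11), the purine enzyme GART (-1.07) and ADSS (-1.06) followed it. Of 13 genes of serine and folate metabolism 9 were lower and 1 higher (median -0.48).

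Of 36 genes of replication origins and forks, 25 had a lower difference and 1 a higher one (median -0.54), while 35 of them fell in each line. PCNA, the sliding clamp of the replication fork, was at 161.7, 157.7 and 142.2 CPM in SUDHL4 DMSO and 22, 23.7 and 19.9 with inhibitor. In Farage it was at 222.4, 248.5 and 229.7 CPM with DMSO and 102.5, 102.9 and 106.1 with inhibitor. Both lines separated fully by treatment, and treated Farage stayed above treated SUDHL4 (-1.60, SE 0.0974, adjusted p = 1.41e-09). UNG, the uracil glycosylase that acts on the products of the hypermutation enzyme in germinal centre B cells, began at 55.06 ± 3.71 CPM in SUDHL4 and 52.14 ± 2.79 in Farage. It ended at 4.653 ± 1.1 and 20.23 ± 1.3 CPM (-2.0, SE 0.153). The licensing factor CDC6 (-1.36) and the helicase subunit MCM3 (-1.28) were also lower, whereas MCM5, another subunit of that helicase, differed by -0.01 (SE 0.104).

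Recombination and Fanconi genes, which repair broken and crosslinked DNA, gave 19 lower and 2 higher differences among 27 (median -0.48). The helicase BLM was at 58.9, 52.5 and 51.8 CPM in SUDHL4 DMSO and 9.37, 8.93 and 11.8 with inhibitor, and at 63.7, 58.4 and 64.3 in Farage DMSO and 48.5, 50.4 and 47.6 with inhibitor. The DMSO levels of the lines overlapped at 58.9 and 58.4 CPM, and the treated levels did not (-1.99, SE 0.123, adjusted p = 1.62e-09). FIGNL1, an ATPase of homologous recombination, went from 32.94 ± 1.57 to 4.761 ± 1.42 CPM in SUDHL4 and from 42.8 ± 1.77 to 49.56 ± 3.97 in Farage (-2.79). EXO1 (-1.53) and PALB2 (-1.23) were lower too, and FANCD2 had no called difference (0.23, adjusted p = 0.122), though edgeR called it (0.31, adjusted p = 0.0377), as did the fit without treated SUDHL4 replicate 2 (0.33, adjusted p = 0.0187).

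At the G1 to S transition CDK2 parted in direction between the lines. Of 23 genes of G1 cyclins, the RB family and E2F factors 13 had a lower and 5 a higher difference (median -0.45). CDK2, the kinase that drives entry into S phase, was at 74.8, 75.7 and 73.5 CPM in SUDHL4 DMSO and 44, 47.3 and 44.4 with inhibitor. Farage libraries were at 153.3, 155.1 and 156.6 CPM with DMSO and 360.3, 371.7 and 368.7 with inhibitor. It fell in SUDHL4 and rose in Farage with no overlap in either line (-1.95, SE 0.0701, adjusted p = 6.08e-12). CDC25A, the phosphatase that activates it, went from 39.63 ± 1.92 to 6.479 ± 0.64 CPM in SUDHL4 and from 38.07 ± 2.7 to 35.08 ± 0.257 in Farage (-2.33, SE 0.108). E2F2 (-1.25) and E2F8 (-1.13) fell in both lines, but these 2 differences were not called with all 18 libraries in the fit (adjusted p = 0.0591 and 0.0921).

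Mitosis genes, which act later in the cycle, gave more higher differences than lower ones. Of 32 mitotic kinases, kinesins and kinetochore genes, 13 had a higher difference and 6 a lower one (median 0.14), with 30 of them lower after treatment in each line. CDC25C, the phosphatase that releases CDK1 for mitosis, was at 8.25, 8.68 and 8.31 CPM in SUDHL4 DMSO and 9.19, 8.29 and 9.63 with inhibitor. The Farage values were 11.1, 13.2 and 9.29 CPM with DMSO and 3.42, 2.98 and 3.55 with inhibitor. The SUDHL4 groups overlapped and the Farage groups did not (1.58, SE 0.149, adjusted p = 1.8e-07). CDC20, which activates the anaphase promoting complex, went from 38.73 ± 2.38 to 15.65 ± 1.77 CPM in SUDHL4 and from 53.44 ± 2.32 to 7.674 ± 0.548 in Farage (1.39). Cyclin A2 (CCNA2) fell by 1.90 in both lines, from 87.1 ± 3.23 to 22.62 ± 2.67 CPM and from 81.89 ± 3.18 to 21.24 ± 1.7 (difference -0.00, SE 0.112). In the fit of all 18 libraries 3 mitosis genes were higher and 0 lower, 11 replication genes, 8 recombination genes, 6 G1 genes and 5 folate genes were lower, as were 13 nucleotide and 16 MYC network genes.

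**Figure D2:**
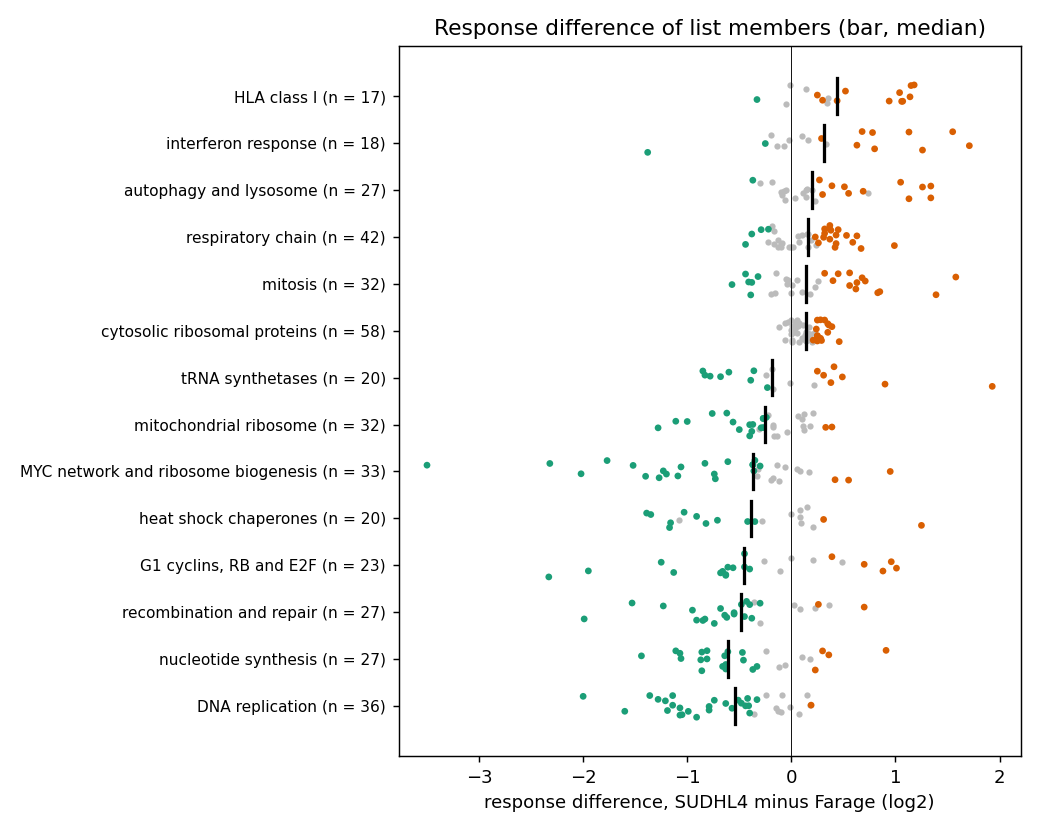
Response difference (SUDHL4 minus Farage, log2) of each shared member of 14 gene lists, with the list's median as a black bar. Orange and green points are called above and below 0, grey points are not called, and vertical scatter within a list has no meaning. DNA replication and nucleotide synthesis lie mostly left of 0 with medians of -0.54 and -0.61, and HLA class I mostly right of it at 0.44.

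Of 32 mitochondrial ribosomal proteins 16 had a lower difference and 2 a higher one (median -0.25, and 8 lower and 0 higher with all 18 libraries), led by MRPL16 (-1.28), MRPL17 (-1.11) and MRPS26 (-1.0). Of 58 cytosolic ribosomal proteins 17 had a higher difference and 0 a lower one (median 0.14), from RPLP1 at 0.46 and RPL3 at 0.39 downward. The count was 23 higher and 0 lower after rescaling by the median of ratios, 29 and 0 by edgeR with its own scaling, and 4 and 0 with all 18 libraries, where RPL3 was not called (adjusted p = 0.172). Of 33 initiation and elongation factors 5 were higher and 13 lower (median -0.09), with the EIF3 subunit EIF3B (-1.03), the cap-binding EIF4E (-0.91) and its inhibitor EIF4EBP1 (-1.23) among the lower ones. Of 42 respiratory chain and ATP synthase genes 18 were higher and 4 lower (median 0.16). CYC1, a cytochrome of complex III, fell in both lines, from 139.4 to 80.88 and from 115.6 to 41.65 CPM (0.67, SE 0.102).

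Chaperones of the heat shock response, switched on by the factor HSF1 when proteins misfold, rose in both lines, many of them further in Farage. Of 20 shared members 13 rose in SUDHL4 and 18 in Farage, where 28.5% and 29.4% of all genes tested did. In the difference 10 were lower and 2 higher (median -0.39). HSPA8, the constitutive HSP70, was at 2215, 2205 and 2225 CPM in SUDHL4 DMSO and 2233, 2504 and 1945 with inhibitor. In Farage it was at 1835, 2123 and 1981 CPM with DMSO and 4257, 4462 and 4649 with inhibitor. The SUDHL4 groups overlapped, while every treated Farage library lay above all others (-1.17, SE 0.115, adjusted p = 2.74e-07). HSP90AA1, the inducible HSP90, went from 1341 ± 127 to 1727 ± 114 CPM in SUDHL4 and from 1127 ± 35.7 to 3802 ± 123 in Farage (-1.39), and its activator AHSA1 rose in both (-1.03). The mitochondrial cochaperonin HSPE1 fell in SUDHL4 and rose in Farage (-1.16). PTGES3, the HSP90 cochaperone p23, rose by 1.72 and 1.64 (difference 0.08, SE 0.138). Without replicate 3 of SUDHL4 DMSO 5 chaperone genes were higher and 11 lower.

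The heat shock element, searched on both strands as GAA, TTC and GAA with 2 free bases between neighbours, was in 4 of 18 matched promoters of these genes (22.2%), against 0.487% of all promoters and 0.319% of shared genes. HSPA8 is shown because it holds 2 matches and was abundant in both lines yet rose in Farage alone by call. The stretch runs 5′ to 3′ along the gene and ends before the start site (RefSeq, GRCh38.p14, chr11:123062139-123062386, minus strand), with the matches in capitals.
HSPA8: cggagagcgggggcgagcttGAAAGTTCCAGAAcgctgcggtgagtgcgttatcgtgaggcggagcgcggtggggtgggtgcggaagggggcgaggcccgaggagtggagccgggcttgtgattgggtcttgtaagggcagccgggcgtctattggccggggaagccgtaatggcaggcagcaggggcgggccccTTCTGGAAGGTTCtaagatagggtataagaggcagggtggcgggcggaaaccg
The matches begin 230 and 55 bases before the start site, and the second is read on the other strand. CHORDC1, an HSP90 cochaperone with 3 overlapping matches, is shown for contrast and was chosen after its values were seen. It rose by 2.20 in SUDHL4 and 1.99 in Farage (difference 0.21, SE 0.19, adjusted p = 0.358). Its stretch is chr11:90223050-90223149, minus strand, of the same build.
CHORDC1: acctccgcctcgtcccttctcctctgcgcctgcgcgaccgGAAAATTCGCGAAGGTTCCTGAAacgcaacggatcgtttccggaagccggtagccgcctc
The 4 genes with a match had a median difference of -0.04 and the 14 without one of -0.56. These few promoters were described and not tested.

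Of 22 shared genes of the NRF2 system, glutathione and thioredoxin, which answer oxidative stress, 15 rose in SUDHL4 and 17 in Farage. In the difference 4 were higher and 8 lower (median -0.07, or 0.08 without replicate 3 of SUDHL4 DMSO, when 7 were higher). With all 18 libraries 1 was higher and 8 lower. SRXN1, which repairs peroxiredoxins, was at 17.8, 18.7 and 25.1 CPM in SUDHL4 DMSO and 76.4, 80.9 and 73.6 with inhibitor, and at 23.7, 25.8 and 26.1 in Farage DMSO and 244.6, 247.9 and 266.2 with inhibitor. It rose without overlap in both lines and furthest in Farage (-1.40, SE 0.134, adjusted p = 1.98e-07). Glutathione reductase (GSR, -1.44) and KEAP1, the inhibitor of NRF2 (-0.69), also rose more in Farage, and thioredoxin (TXN) rose there and fell in SUDHL4 (-1.33). FTL, the ferritin light chain, rose equally within error, from 775.2 ± 184 to 3127 ± 307 and from 783.1 ± 60.2 to 3268 ± 340 CPM (-0.03, SE 0.175, or 0.16 without replicate 3 of SUDHL4 DMSO).

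ATF4, the factor of amino acid stress, has targets for amino acid uptake, amino acid synthesis and the charging of tRNAs. Of 23 genes of that list 18 rose in each line, and the difference was higher for 4 and lower for 11 (median -0.25). Without replicate 3 of SUDHL4 DMSO it was higher for 8 and lower for 12. SLC7A5, a transporter of large neutral amino acids, went from 208 ± 25 to 578.4 ± 22.2 CPM in SUDHL4 and from 154.9 ± 7.49 to 963.9 ± 26.9 in Farage (-1.15). ALDH18A1 of proline synthesis (-1.64) and CBS (-1.01) fell in both lines. PSPH, the last enzyme of serine synthesis, fell in SUDHL4 and rose in Farage (-0.97), and the glutamine transporter SLC1A5 rose by 1.02 and 1.12 (difference -0.10, SE 0.0815).

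Cytosolic tRNA synthetases, which load amino acids onto tRNAs, went both ways: of 20 shared members 7 had a higher difference and 8 a lower one (median -0.19). AARS, the alanine enzyme, was at 104.4, 108.9 and 153.7 CPM in SUDHL4 DMSO and 414.0, 401.1 and 435.5 with inhibitor. Farage libraries were at 258.3, 266.4 and 255.0 CPM with DMSO and 226.7, 232.4 and 243.5 with inhibitor. It rose in SUDHL4 alone, where the highest DMSO value is that of replicate 3 (1.93, SE 0.143, adjusted p = 1.11e-08, and 2.11 without that library). CARS, the cysteine enzyme, rose in both and further in SUDHL4 (0.90), whereas LARS (-0.85) fell further there and DARS (-0.78) fell there and rose in Farage. WARS, the tryptophan enzyme, rose by 1.07 and 1.25 (-0.18, SE 0.118).

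The response element of ATF4 with its C/EBP partners, searched as TGATGNAA on both strands, was in 5 of 12 matched synthetase promoters (41.7%), against 3.67% of all promoters and 1.59% of shared genes. The genes with it were AARS, CARS, IARS, NARS and TARS. Of these 5, 4 had a higher difference and 1 a lower one (median 0.49), and of the 7 without it 1 had a higher and 5 a lower one (median -0.39). The promoters of AARS and IARS are shown as examples of the match, which is in capitals and is read on the other strand. They are RefSeq's, GRCh38.p14, chr16:70289646-70289733 and chr9:92293698-92293750, both minus strand, and end before the start site.
AARS: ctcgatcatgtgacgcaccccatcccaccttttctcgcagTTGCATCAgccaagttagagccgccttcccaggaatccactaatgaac
IARS: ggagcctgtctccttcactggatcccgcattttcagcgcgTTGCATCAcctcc
The match begins 187 bases before the start site in AARS and 13 in IARS, the isoleucine enzyme, whose difference was 0.31. The split is over few genes, was noted with the values in view and was not tested. In the ATF4 list itself the 3 holders of the match had a median of -0.41 and the 17 others one of -0.25.

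Endoplasmic reticulum genes gave 9 higher and 3 lower differences among 21 (median 0.06), and 9 and 5 without replicate 3 of SUDHL4 DMSO (median 0.19). Among all genes tested 28.1% were higher and 30.1% lower. HERPUD1, a component of protein degradation from the reticulum, went from 97.44 ± 15.7 to 290.8 ± 9.77 CPM in SUDHL4 and from 625.9 ± 26.8 to 606.6 ± 32 in Farage (1.62, SE 0.119). EDEM1, which sorts misfolded glycoproteins, also rose in SUDHL4 with no call in Farage (1.10), while CRELD2 fell in SUDHL4 and rose in Farage (-1.85). Autophagy and lysosome genes gave 11 higher and 1 lower among 27 (median 0.20). Most of them rose in both lines: 19 rose and 3 fell in SUDHL4, and 20 rose and 5 fell in Farage. CTSA, a lysosomal protease and 1 of those 5, rose in SUDHL4 from 29.49 ± 0.52 to 41.09 ± 1.23 CPM. In Farage it fell from 66.34 ± 3.36 to 37.89 ± 0.4 (1.26). Proteasome subunits gave 5 higher and 5 lower differences among 30 (median -0.02), and 2 and 5 with all 18 libraries, with PSMC2 at -0.63.

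**Figure D3:**
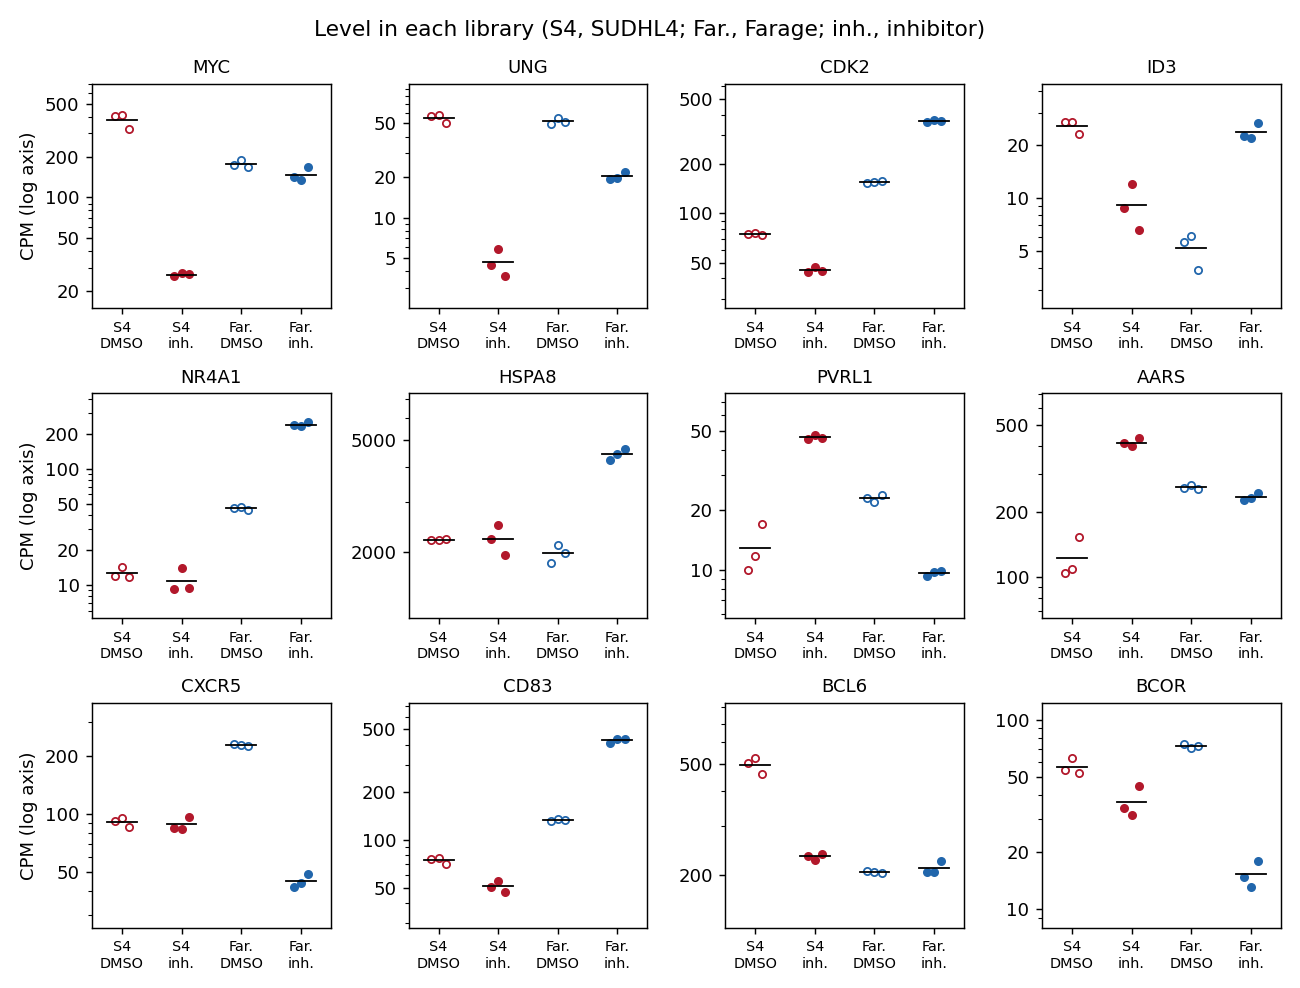
CPM of 12 shared genes in each library on a log axis whose range differs between panels, with SUDHL4 in red, Farage in blue, DMSO as open and inhibitor as filled circles, replicates 1 to 3 from left to right and the mean as a bar. MYC falls to 26.61 CPM in treated SUDHL4 and CDK2 rises to 366.9 CPM in treated Farage.

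ID3 led the genes that rose in Farage and fell in SUDHL4. ID3, an inhibitor of the E proteins that set B cell identity, was at 26.8, 26.8 and 22.8 CPM in SUDHL4 DMSO and 8.71, 12 and 6.57 with inhibitor. The Farage values were 5.63, 6.1 and 3.91 CPM with DMSO and 22.3, 21.9 and 26.5 with inhibitor. The treatment thus exchanged the order of the lines, each group free of overlap with the other of its line (-3.42, SE 0.229, adjusted p = 3.83e-09). B3GNT7, a glycosyltransferase, went from 13.95 ± 2.31 to 7.016 ± 0.266 CPM in SUDHL4 and from 10.15 ± 0.342 to 52.27 ± 2.03 in Farage (-3.14). ZC3HAV1, an antiviral RNA-binding protein, went from 59.21 ± 2.52 to 31.15 ± 3.75 and from 128.1 ± 4.47 to 485.3 ± 3.46 CPM (-2.82). JAZF1 (-2.95), ZNF331 (-2.76), the inositol phosphatase SYNJ2 (-2.70) and the kinase PRKX (-2.37) had the same pattern. NLRP1, an inflammasome sensor, fell from 13.02 ± 0.499 to 7.982 ± 0.733 CPM and rose from 68.99 ± 0.714 to 319.7 ± 24.6 (-2.84).

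Of the genes that rose in SUDHL4 and fell in Farage, PVRL1, the adhesion molecule nectin-1, differed most. It was at 9.96, 11.7 and 17 CPM in SUDHL4 DMSO and 45.5, 47.6 and 46.4 with inhibitor, and at 23, 22 and 23.9 in Farage DMSO and 9.29, 9.75 and 9.86 with inhibitor. The groups of each line did not overlap, and the highest SUDHL4 DMSO value is again replicate 3 (2.98, SE 0.175, adjusted p = 1.04e-09, and 3.18 without it). RIMS3 was at 16.16 ± 2.32 and 38.04 ± 9.01 CPM in SUDHL4 and at 17.77 ± 0.307 and 7.566 ± 0.627 in Farage (2.30). TIFA, an adaptor that activates NF-kB through TRAF proteins, went from 101 ± 7.98 to 172.7 ± 13.4 and from 144.1 ± 9.39 to 80.46 ± 3.38 CPM (1.60). SNTB1 (1.64), LYPLAL1 (1.65), the focal adhesion protein zyxin (ZYX, 1.43), the estrogen-binding receptor GPER (1.54) and the calcium-binding NUCB1 (1.26) did likewise.

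Several of the largest positive differences rest on a rise in SUDHL4, with Farage changed by -0.53 to 0.18. ABCA1, the cholesterol efflux pump, was at 36.2, 39.6 and 66.6 CPM in SUDHL4 DMSO and 212.7, 177.1 and 236.3 with inhibitor. In Farage it was at 6.08, 4.61 and 5.53 CPM with DMSO and 4.85, 4.52 and 3.22 with inhibitor. The Farage groups overlapped at this low level (2.47, SE 0.255, adjusted p = 4.9e-07). Without replicate 3 of SUDHL4 DMSO the ABCA1 difference was 2.73. The stress factor ATF5 (2.11), the elongation factor gene AFF1 (2.06), LHFP (1.99), the gasdermin gene DFNA5 (1.96), SLCO3A1 (1.94) and ZNF608 (1.93) followed, as did TLR4, the receptor of bacterial lipopolysaccharide (2.11). Without that replicate ATF5 was at 2.27, AFF1 at 2.35, LHFP at 2.26, DFNA5 at 2.14, ZNF608 at 2.11 and TLR4 at 2.34. MPEG1 and SNX22 fell in both lines and further in Farage (2.02 and 1.96). RGS1, a regulator of G protein signalling, had 4.05, 3.86 and 18.7 CPM in SUDHL4 DMSO and 149.4, 170.1 and 112.7 with inhibitor, against 368.2, 405.6 and 394.6 and then 1778, 1885 and 1824 CPM in Farage. It rose in both lines from very different levels, and its difference of 1.96 (SE 0.486, adjusted p = 0.00251) was 2.62 without replicate 3 of SUDHL4 DMSO and was not called by DESeq2 (1.84, adjusted p = 0.0508). RGS1 is a shared gene through that replicate, since the other two average 3.96 CPM.

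Besides RGS1, 4 of the 8 most abundant genes with a 2-fold difference had a higher one, and all 4 fell in Farage. LCP1, an actin bundling protein of leukocytes, was at 3249, 3341 and 3276 CPM in SUDHL4 DMSO and 3211, 3501 and 3052 with inhibitor, and at 4507, 4851 and 4678 in Farage DMSO and 2218, 2278 and 2339 with inhibitor. The Farage groups were apart and the SUDHL4 groups overlapped (1.02, SE 0.0894, adjusted p = 7.73e-08). SWAP70, which acts in B cell activation and migration, rose in SUDHL4 from 458.2 ± 19.9 to 737.8 ± 25.5 CPM and fell in Farage from 1115 ± 18.9 to 731.8 ± 19.1 (1.29), so that the treated lines met. IRF8, a transcription factor of the germinal centre, did the same, from 310.9 ± 9.78 to 456.1 ± 21.8 and from 682.5 ± 25.7 to 456.7 ± 13 CPM (1.13). CCDC69 fell in both lines, further in Farage (1.17).

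Of 28 genes of B cell and germinal centre identity 12 had a higher and 8 a lower difference (median 0.11). By call 23 fell in SUDHL4 and 25 in Farage, where 52% and 52.7% of all genes tested did. FOXO1 rose in SUDHL4 from 140 ± 8.84 to 267.6 ± 14.9 CPM and was at 98.54 ± 3.64 and 92.14 ± 1.07 in Farage (1.02). POU2F2, the B cell factor OCT2, was almost identical in both lines, from 140 ± 17 to 20.24 ± 2.71 and from 138.1 ± 1.8 to 20.14 ± 2.42 CPM (-0.01, SE 0.141). Of 8 plasma cell genes 5 were higher and 2 lower (median 0.43), with the marginal zone protein MZB1 falling from 117.5 ± 9.63 to 32.19 ± 1.86 and from 77.07 ± 5.89 to 7.133 ± 0.44 CPM (1.43), and XBP1 rising by 1.28 and 1.22 (0.06, SE 0.177). Of 17 genes named in the literature as BCL6 targets 6 were higher and 6 lower (median -0.01). Of 33 genes of B cell receptor signalling 11 were higher and 9 lower (median 0.11). Beside these counts, 28.1% of all genes tested were higher and 30.1% lower. The exchange factor RASGRP3 fell by 1.23 in Farage and by 0.16 in SUDHL4 (1.07).

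Receptors that place B cells in tissue differed as well. CXCR5, which draws B cells into follicles, was at 91.5, 95.2 and 85.3 CPM in SUDHL4 DMSO and 85, 84 and 96.7 with inhibitor. Farage libraries were at 229.6, 226.8 and 224.4 CPM with DMSO and 42, 43.7 and 48.9 with inhibitor. The SUDHL4 groups overlapped and the Farage groups did not (2.28, SE 0.0976, adjusted p = 3.26e-11). Of 19 migration and RGS genes 4 were higher and 8 lower (median -0.16, 2 and 4 with all 18 libraries), with RGS16 falling in SUDHL4 and rising in Farage (-1.88). CXCR4 rose in both and further in Farage (-0.96), which was not called with all 18 libraries (adjusted p = 0.0504). Of 14 SLAM family, costimulatory and TNF receptor genes 7 were higher and 3 lower (median 0.34), such as CD86 (1.09) and SLAMF1 (-1.26).

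Signalling through NF-kB and the early response genes gave some of the clearest opposite values. CD83, a surface marker of activated B cells, was at 76.1, 77.3 and 70.8 CPM in SUDHL4 DMSO and 50.6, 55.2 and 46.7 with inhibitor, and at 131.9, 135.9 and 133.9 in Farage DMSO and 413.3, 433.0 and 436.4 with inhibitor. It fell in SUDHL4 and rose in Farage without overlap (-2.22, SE 0.087, adjusted p = 1.36e-11). NFKB2, the precursor of the p52 subunit, did the reverse, from 29.1 ± 1.45 to 38.59 ± 4.46 and from 509.6 ± 7.75 to 287 ± 12.2 CPM (1.22). The inhibitor NFKBIE fell in Farage alone by call (1.53), and TRAF1 fell by 1.33 and 1.30 (-0.03, SE 0.13). Of the 24 genes in that list 10 were higher and 6 lower (median 0.25). Of 16 immediate early genes 5 were higher and 5 lower (median 0.04), where 28.1% and 30.1% of all genes tested were. NR4A1, an orphan receptor induced by antigen receptor signals, was at 12, 14.2 and 11.7 CPM in SUDHL4 DMSO and 9.22, 13.9 and 9.35 with inhibitor, against 45.8, 46.7 and 44.5 and then 235.3, 231.3 and 250 CPM in Farage. Only Farage responded by call (-2.58, SE 0.16, adjusted p = 1.68e-09). EGR1 fell in SUDHL4 and rose in Farage (-2.79), and EGR2 fell in both, to 0.5805 ± 0.0628 CPM in SUDHL4 (-1.61). The log2(CPM + 1) scale understates that of so low a gene, and edgeR gave -2.70 and DESeq2 -2.74 for EGR2.

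Interferon and antigen presentation genes gave more higher differences than lower ones. Of 18 interferon response genes 9 were higher and 2 lower (median 0.31), with the interferon signal factor IRF9 rising in SUDHL4 and falling in Farage (1.26) and PARP14 lower (-1.38). Of 17 genes of HLA class I and peptide loading 11 were higher and 1 lower (median 0.44). HLA-C, a class I heavy chain, rose in SUDHL4 from 37.73 ± 1.07 to 54.57 ± 1.62 CPM and fell in Farage from 174.9 ± 7 to 112.6 ± 5.99 (1.15). HLA class I genes are near-identical in places, so reads may be shared between them. Of 12 class II genes 7 were higher and 4 lower (median 0.49). HLA-DMB fell in both and further in Farage (1.55). CIITA, the master activator of class II genes, fell in both and further in SUDHL4, from 97.5 ± 13.4 to 12.44 ± 0.92 CPM and from 242.5 ± 8.59 to 91.27 ± 5.71 (-1.47), opposite in sign to most genes of its list.

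Genes of cell death divided between the lines. BCL2L11, the proapoptotic BIM, was at 141.0, 141.9 and 154.6 CPM in SUDHL4 DMSO and 233.6, 224.3 and 261.3 with inhibitor, and at 22, 20.8 and 23.1 in Farage DMSO and 111.5, 117.0 and 111.6 with inhibitor. It rose in both without overlap, further in Farage, which stayed below untreated SUDHL4 (-1.60, SE 0.0921, adjusted p = 7.74e-10). BCL2, which BIM opposes, fell in SUDHL4 from 301.7 ± 21.5 to 187.8 ± 11.8 CPM and rose in Farage from 315.3 ± 10 to 457 ± 17 (-1.21). CFLAR, the inhibitor of caspase 8, rose in SUDHL4 and fell in Farage (1.60). Of 20 BCL2 family and death receptor genes 9 were higher and 6 lower (median 0.20), where 28.1% and 30.1% of all genes tested were. With all 18 libraries 3 were higher and 4 lower. Of 23 p53 targets 12 were higher and 5 lower (median 0.49), with TP53INP1 rising in SUDHL4 (1.42) and AEN falling further there (-1.41). CDKN1A, the p53 target that arrests the cycle, rose by 1.77 and 1.28, a difference that was not called (0.49, adjusted p = 0.0633) but was with edgeR (0.70, adjusted p = 0.0186), with a pseudocount of 0.25 (adjusted p = 0.0484), without replicate 3 of SUDHL4 DMSO (0.59, adjusted p = 0.0214) and without treated SUDHL4 replicate 3 (0.71, adjusted p = 0.00112).

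In central metabolism 21 glycolytic genes gave 3 higher and 9 lower differences (median -0.19), and 2 and 3 with all 18 libraries. HK2, the first enzyme of glycolysis, was at 116.1 ± 6.19 and 105.8 ± 5.26 CPM in SUDHL4 (a called change of -0.13) and rose in Farage from 33.85 ± 0.507 to 79.34 ± 1.62 (-1.34). LDHA rose further in Farage (-0.96) and ALDOC further in SUDHL4 (1.12, or 1.38 without replicate 3 of SUDHL4 DMSO). Of 9 hypoxia genes 3 were higher and 1 lower (median 0.12), 6 and 1 without replicate 3 of SUDHL4 DMSO (median 0.37), and 1 and 0 with all 18 libraries. Cholesterol and fatty acid synthesis gave 12 higher and 7 lower among 34 (median 0.06). LSS, which closes the sterol ring, fell in SUDHL4 and rose in Farage (-1.41), and the sterol carrier STARD4 rose in SUDHL4 from 21.34 ± 3.57 to 63.86 ± 2.25 CPM with no call in Farage (1.46). Of 17 FOXO and mTOR brake genes 5 were higher and 5 lower (median 0.08), where 28.1% and 30.1% of all genes tested were. TSC22D3 rose further in Farage (-1.32).

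Of 19 histone demethylases and DNA methylation genes 9 were higher and 5 lower (median 0.16), with KDM5A at 0.65 and PHF8 at -0.63. Of 6 histone genes 4 were higher and 2 lower (median 0.25), with the linker histone gene H1FX at 1.54 (2.33 by edgeR). Of 32 splicing factors 5 were higher and 8 lower (median -0.00), with TRA2A rising in SUDHL4 (1.15). Of 27 nuclear pore genes 3 were higher and 9 lower (median -0.11), with NUP35 at -0.94. With all 18 libraries fewer members of many lists were called: 3 higher and 1 lower of the corepressors, 6 and 4 of the germinal centre genes, 3 and 1 of the plasma cell genes, 4 and 3 of the BCL6 targets, 8 and 4 of B cell receptor signalling, 5 and 4 of NF-kB signalling, 3 and 2 of the SLAM and costimulatory genes, and 4 and 2 of the demethylase list. Of the others, 4 and 6 synthetases, 6 and 2 reticulum genes, 12 and 1 respiratory chain genes, 3 and 11 translation factors, 5 and 2 HLA class II genes, 7 and 1 interferon genes, 3 and 4 immediate early genes, 4 and 2 FOXO genes, 2 and 1 histones, 4 and 5 splicing factors and 1 and 6 nuclear pore genes were called. Splicing factors turned to 10 higher and 7 lower after rescaling by the median of ratios and 10 and 5 by edgeR. The medians of the NRF2, hypoxia, proteasome, BCL6 target, splicing, immediate early, FOXO and migration lists took both signs across the alternatives.

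The BCL6 site, searched on both strands as TTCCTNGAA, was in 2 of 217 promoters of genes with a higher difference of at least 2-fold (0.922%) and 5 of 318 of those with a lower one (1.57%), against 0.97% of shared genes and 1.61% of all promoters.

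SUDHL6, the remaining line of the series, was not used to form the difference and shows on which side another lymphoma line falls. Its responses come from the fit of all 18 libraries, and its replicates spread widely for some genes. CXCR5, for example, was at 27.31 ± 14.2 CPM in treated SUDHL6 (mean ± SD, n = 3). Over the 264 genes with a higher difference of at least 2-fold, the median change was 0.37 in SUDHL4, -0.86 in Farage and -0.02 in SUDHL6, and 161 of them (61.0%) were nearer to SUDHL4. Over the 395 with a lower one the medians were -1.51, -0.21 and -0.70, and 169 (42.8%) were nearer to SUDHL4. Over all shared genes 49.7% were nearer to SUDHL4. SUDHL6 lay between the others for 65.2% and 76.5% of these genes, which were chosen for a wide gap between SUDHL4 and Farage and so leave room for a value between. Single genes fell on either side: MYC changed by -1.45 in SUDHL6 and ID3 by -0.72, ADAM19, a metalloprotease, by -3.15 beside -3.28 in SUDHL4, CXCR5 by -1.93 beside -2.32 in Farage, and PVRL1 by -1.0 beside -1.17 in Farage.

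**Figure D4:**
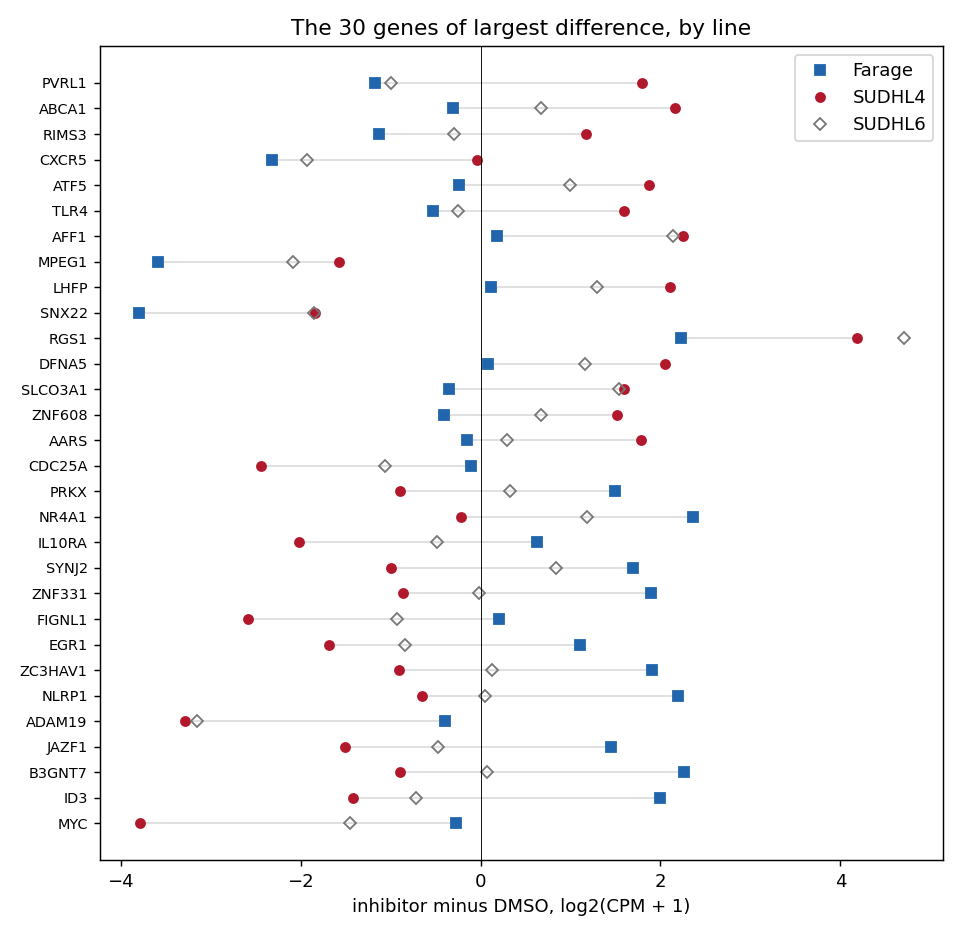
Change from DMSO to inhibitor (log2(CPM + 1)) of the 15 largest positive and 15 largest negative differences whose pairs did not overlap between SUDHL4 and Farage, in Farage (blue squares), SUDHL4 (red circles) and SUDHL6 (open diamonds). SUDHL6 lies between the others for MYC, at -1.45, and beside SUDHL4 for ADAM19, at -3.15.

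Just inside the 5 CPM threshold, CYP2R1 had a mean of 5.001 CPM in SUDHL4 DMSO and went to 14.593 CPM, against 14.478 and 12.917 CPM in Farage, and EPOR was at 5.003 and 4.113 CPM in Farage. Just outside, METAP1D had 4.982 CPM in SUDHL4 DMSO and LSM12 4.98 CPM in Farage DMSO.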

How the data were processed

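RNA was sequenced from SUDHL4 and Farage cells in 4 groups of 3 libraries, named from the labels. Per the labels' protocols the kit was TruSeq RNA. The deposited values are CPM, made by the authors from reads aligned to hg19 with STAR, per the submitters' processing notes; a label names Rsubread. No version, annotation release or strand setting is stated in what was used here, so an antisense or overlapping neighbour may share a gene's reads. Listed genes held 75.13 to 80.72% of each CPM divisor in the 12 libraries, and 100% of values were whole reads within 0.01 reads.

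Values were analysed as log2(CPM + 1), which understates changes of low genes. Genes with at least 1 CPM in at least 3 of the 12 libraries (12357, among them all 8659 shared genes) were fitted by their 4 group means in limma 3.58.1 (R 4.3.3), with eBayes following mean expression and 8 residual degrees of freedom. All tests are two-sided and p-values were adjusted over all genes tested by the Benjamini-Hochberg method. The DMSO libraries that admit a gene also enter its response. Alternatives were, 1 at a time, the pseudocount (0.25), the filter (none, 19014 genes, or a mean of 5 CPM, 9586 genes), scaling by medians of ratios, a replicate block, all 18 libraries (12769 genes), edgeR 4.0.16 with TMM (quasi-likelihood) or DESeq2 1.42.0 on read counts recovered from the deposited CPM (which change the model, the scaling and the pseudocount together), a 1.5-fold minimum, leaving out each library, and a member threshold of 10 or 2 CPM.

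Genes named are BCL6, EZH2, CBX8 and BCOR. Further genes are the 15 largest called differences per direction whose 9 pairs do not overlap between lines, the 8 per direction called opposite ways with the largest smaller change, and the 8 most abundant with a called 2-fold difference. Each of 42 lists adds up to 4 called genes of smallest p and the gene nearest to 0 among those changed by at least 1 log2 in both lines, and 4 genes stand at the threshold. Unnamed loci were skipped except in the lists. The lists held 947 shared genes, and 9 symbols were matched by an older name. Members, lists and motifs were chosen with earlier results of these data known. Some genes that this rule names are not reported here.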

Additional observations from a re-analysis of the deposited data

Results flagged for a closer look

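Because the lines were tested against each other under the same treatment, each called difference is a result that differs between groups. These were 2315 shared genes higher and 2643 lower. Of the genes that rose in SUDHL4 and fell in Farage, the differences were 2.98 for PVRL1, 2.30 for RIMS3, 1.65 for LYPLAL1, 1.64 for SNTB1, 1.60 for TIFA, 1.54 for GPER, 1.43 for ZYX and 1.26 for NUCB1. Of those that fell in SUDHL4 and rose in Farage, they were -3.42 for ID3, -3.14 for B3GNT7, -2.95 for JAZF1, -2.82 for ZC3HAV1, -2.79 for EGR1, -2.76 for ZNF331, -2.70 for SYNJ2 and -2.37 for PRKX.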

How the results depend on the processing

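Of 234 genes named by rule, 196 had a called difference, of which 179 were called in every alternative run and 17 were lost in at least 1, mostly with all 18 libraries in the fit. Of the 38 not called, 10 were called in at least 1 alternative, and 0 of the 196 called changed direction, while some near 0, such as FTL and XBP1, did. With all 18 libraries 1385 shared genes were higher and 1686 lower in the difference, all among the 4958 of the 12-library fit. With a fold of at least 1.5, 939 were higher and 1191 lower in the difference, 1398 were higher in SUDHL4, and 1302 were higher and 3174 lower in Farage. Leaving out 1 library at a time gave 2067 to 2395 higher and 2430 to 2781 lower in the difference, 2461 to 2556 and 4806 to 4967 in SUDHL4, and 2441 to 2619 and 4647 to 4876 in Farage. The causes were not tested. Replicate numbers were not used to pair the samples in the main fit. Deviations of same-numbered libraries correlated at -0.329 to 0.246, and those of other-numbered libraries at -0.319 to 0.382. With 3 libraries per group these values cannot decide whether the numbers mark pairs. With a replicate block 2242 were higher and 2562 lower in the difference, and 234 of 234 named genes kept their call. Rescaling by the median of ratios, edgeR and DESeq2 each turned the larger count in the difference from lower to higher. In the shallowest of the 12 libraries 3 reads are 0.139 CPM, so depth limits genes far below 5 CPM.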
